A study of Mus musculus with 9 samples.

Results

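Mouse T cells that were activated for 48 h while IkB kinase beta (IKK-beta) was inhibited were compared with T cells taken straight from the spleen, to describe which parts of the activation program are present under the inhibitor. The comparison rests on 6 of the 9 RNA-seq libraries of the study, chosen by their labels: 3 of fresh unstimulated cells and 3 of stimulated, inhibitor-treated cells. The other 3 libraries, of cells stimulated without inhibitor, give the level that each gene reached without it. The series addresses Xist RNA and X inactivation in T cells when NF-kB is blocked.

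Every library was made from splenic CD3+ T cells of female F1 hybrid mice. Their mothers were C57BL/6 with a heterozygous Xist deletion and their fathers castaneus, a cross used to skew X inactivation, so that fresh and treated cells share this background. Unstimulated cells went into TRIzol as soon as they had been enriched. The inhibitor-treated cells were kept for 48 h on plates coated with anti-CD3 (1 µg/ml), in medium holding anti-CD28 (10 µg/ml) and the IKK-beta inhibitor IMD-0354 (2.5 µM), and the stimulated cells had the same culture without IMD-0354. No cultured but unstimulated group and no vehicle enter the comparison, so that culture, stimulation and inhibitor cannot be told apart in it. The labels call the replicates biological without saying that each came from a separate animal, and p-values measure the spread between these libraries only. Enrichment was by column, without a sort, and other spleen cells were still present in the fresh samples, as described below.

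In a resting T cell, NF-kB dimers are held in the cytoplasm by IkB proteins. Signals from the T cell receptor and CD28 pass through protein kinase C theta and an adaptor complex that holds BCL10 and MALT1 to the IkB kinases, IKK-beta phosphorylates IkB-alpha, the IkB protein is degraded and the dimers move to the nucleus. The same receptors also act through calcium and NFAT, through MAP kinases and AP-1, and through the PI3 kinase and mTOR pathway, which together control cytokine genes, growth and metabolism.

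Total gene counts per library ran from 34009988 to 56221174. Gene levels are in CPM, which divides each count by a TMM-scaled library size, and differences are log2 fold changes ± SE of inhibitor-treated over unstimulated cells from edgeR's quasi-likelihood test. A gene is called at a Benjamini-Hochberg adjusted p under 0.05 over the 18374 genes tested. At this threshold 9626 genes (52.4%) were called, 4826 higher (26.3%) and 4800 lower (26.1%) in inhibitor-treated cells, and the median log2 fold change over all genes tested was 0.0. Among called genes 1981 (10.8%) were at least 2-fold higher and 3150 (17.1%) at least 2-fold lower. The levels of the libraries of the 2 groups did not overlap for 10992 genes (59.8%), so a non-overlapping gene is common here. Inhibitor-treated library 1 stood apart, since 30106 genes had a count there, while the other 8 libraries detected 20547 to 23223. Fresh library 2 had the highest B cell, myeloid and neutrophil marker levels of the 3 fresh libraries, the highest levels of 41 of 42 mitosis genes and the lowest levels of all 14 T cell defining genes.

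**Figure D1:**
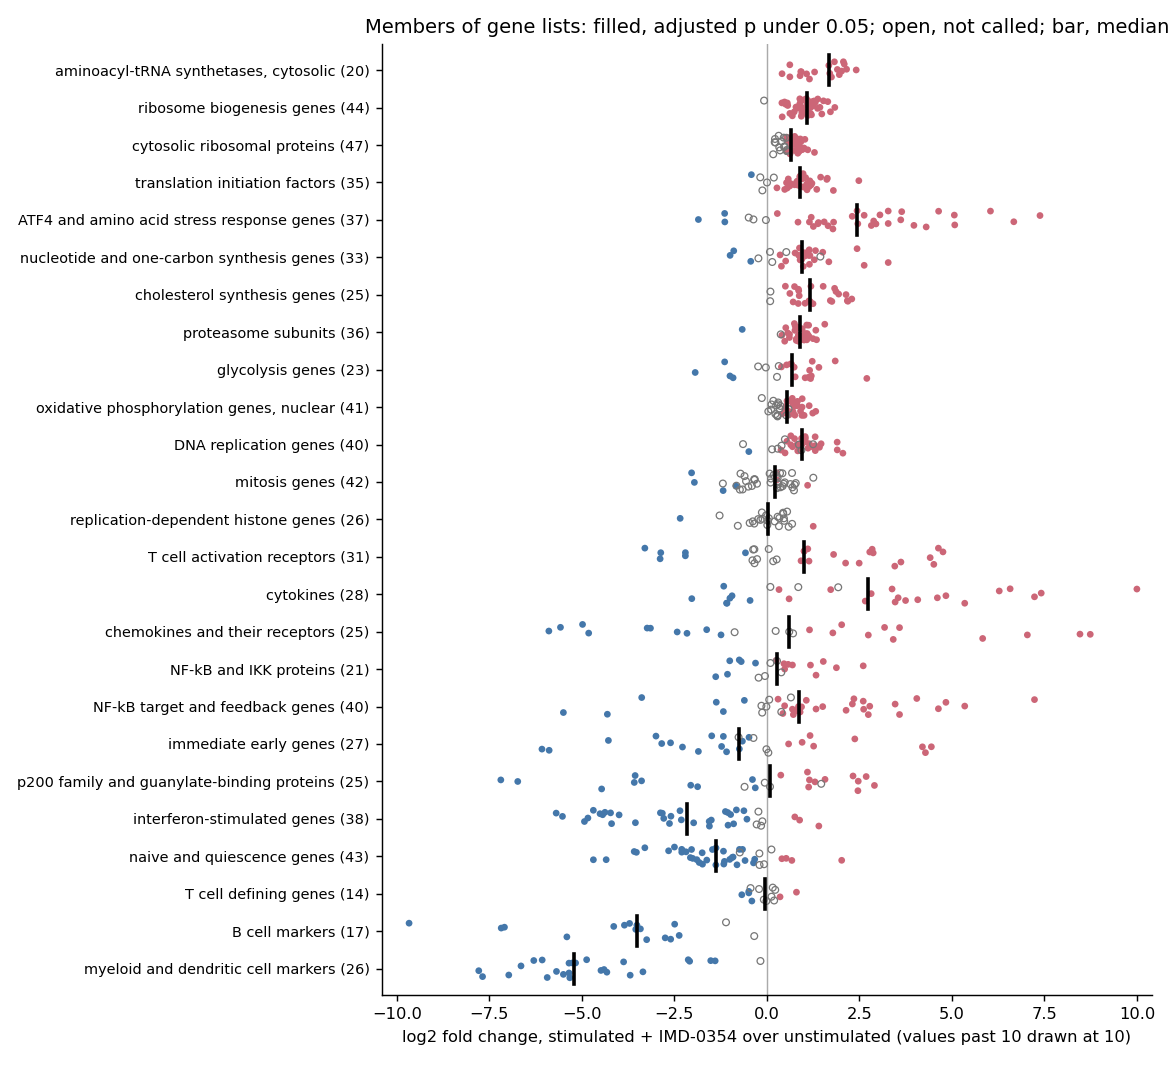
Each point is 1 tested gene of the named list, placed by its log2 fold change of stimulated, IMD-0354-treated over unstimulated cells; filled points were called (red higher, blue lower), open points were not, the black bar is the list's median and the number of genes stands after each name. Aminoacyl-tRNA synthetase, ribosome biogenesis and cholesterol synthesis genes lie to the right of 0, mitosis and histone genes are mostly open points around 0, and interferon-stimulated, naive-state and B and myeloid cell genes lie to the left.

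Genes that define T cells had no common direction, while most markers of each other cell type tested were lower in the cultured cells. Of the 14 T cell defining genes, 2 were called higher, 4 lower and 8 were not called, with a median log2 fold change of −0.05. Over all genes tested 52.4% were called and the median was 0.0, so neither value sets this list apart. Its log2 fold changes ran from −0.68 ± 0.15 for Thy1 to 0.80 ± 0.14 for Zap70, both called. Cd3e, a chain of the T cell receptor complex, read 357, 258 and 431 CPM in the fresh libraries 1 to 3 and 417, 390.2 and 359 CPM in the inhibitor-treated libraries (log2 fold change 0.16 ± 0.15, adjusted p = 0.42). Leaving out 1 library at a time gave 1 or 2 higher and 1 to 6 lower, with 6 lower and a median of −0.20 without fresh library 2, 1 lower without fresh library 3, and 2 lower without fresh library 1 or treated library 1. The coreceptor gene Cd4 was not called (278, 219 and 324 CPM against 323, 319 and 325 CPM, log2 fold change 0.24 ± 0.12, adjusted p = 0.12), but without fresh library 3 it was called higher (0.38, adjusted p = 0.013). Cd8a fell by 0.94 on the log2 scale, from 210.2, 146 and 266 CPM to 101, 119 and 105 CPM.

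Markers of other cells fell by large factors. All 13 neutrophil markers tested were lower, as were 25 of 26 myeloid and dendritic cell markers, 15 of 17 B cell markers, 13 of 14 NK cell markers and 12 of 14 erythroid and platelet markers, with median log2 fold changes of −9.64, −5.22, −3.51, −5.67 and −6.93. Without fresh library 2 the medians were −8.14 for neutrophil, −2.79 for B cell and −5.09 for erythroid and platelet markers, of which 10 were then called lower. Summed over the list, B cell markers held 3249, 4461 and 1769 CPM in the fresh libraries and 298, 292 and 322 CPM with the inhibitor, and myeloid markers held 2024, 2945 and 1546 CPM against 138, 143 and 200 CPM. Lyz2, the lysozyme of macrophages and neutrophils, went from 532, 957 and 334 CPM to 3.36, 6.44 and 13.1 CPM, and Ncr1, a receptor of NK cells, from 69.1, 77.7 and 75.3 CPM to 0.19, 0.131 and 0.041 CPM. Every treated library lay below every fresh one for both genes. Without treated library 3 the log2 fold change of Lyz2 was −6.94 in place of −6.30. The granule gene Ngp read 61, 293 and 38.5 CPM in fresh libraries and had no count in any treated library, and limma voom did not call it (adjusted p = 0.090). In bulk RNA, fewer cells of a type and less RNA per cell cannot be told apart. What part these cells had in the genes described next that such cells also express was not tested.

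Receptors that T cells put on their surface after activation rose to very different extents. Among 31 such genes, 17 were called higher, 6 lower and 8 were not called (median log2 fold change 1.01). Lag3, which encodes an inhibitory receptor that binds MHC class II, rose from 5.96, 8.21 and 6.42 CPM in the fresh libraries to 171, 201 and 186 CPM (log2 fold change 4.76 ± 0.14, adjusted p = 1.6e-08). Stimulated cells without inhibitor held 227 ± 16.8 CPM (SD, n = 3), and the direct test between them and the inhibitor-treated cells did not call Lag3 (log2 fold change −0.29 ± 0.12, adjusted p = 0.068). Il2ra (ENSMUSG00000026770, chr2:11642807-11693193), the alpha chain of the high-affinity interleukin-2 receptor, rose from 25.2, 21.7 and 21.1 CPM to 577, 528 and 586 CPM (log2 fold change 4.63 ± 0.10, adjusted p = 6.0e-09). It stood below the 1517 ± 62.9 CPM of stimulated cells (log2 fold change −1.43 ± 0.09, adjusted p = 2.9e-06).

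Of the TNF receptor family, 3 costimulatory receptors followed the same order of groups. Others did not: Tnfrsf25 (log2 fold change −0.34) and Tnfrsf8, described below, were not called over fresh cells. Tnfrsf4 (OX40) read 10.5, 8.7 and 7.9 CPM in fresh cells, 191, 209 and 217 CPM with the inhibitor and 372 ± 23.8 CPM in stimulated cells. Tnfrsf9 (4-1BB) read 8.01, 10.2 and 7.15 CPM, 179, 177 and 183 CPM and 451 ± 22.5 CPM in these groups, and Tnfrsf18 (GITR) 22.7, 17.9 and 23.7 CPM, 124, 162 and 176 CPM and 302 ± 7.16 CPM. All 3 rose over fresh cells (log2 fold changes 4.51 ± 0.12, 4.41 ± 0.13 and 2.84 ± 0.15) and all 3 were below the stimulated level in the direct test (−0.86 ± 0.11, −1.33 ± 0.11 and −0.97 ± 0.14).

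Other receptors of activated cells stood closer to the fresh than to the stimulated level. Ctla4, the inhibitory receptor that competes with CD28, read 7.79, 7.98 and 9.91 CPM in fresh and 10.1, 8.99 and 11.7 CPM in inhibitor-treated cells and was not called (log2 fold change 0.26 ± 0.14, adjusted p = 0.13), whereas stimulated cells held 148 ± 16.1 CPM. Tnfrsf8, the gene of CD30, read 1.8, 2.32 and 1.3 CPM and 1.38, 1.09 and 1.99 CPM against 155 ± 23 CPM after stimulation alone (log2 fold change over fresh cells −0.27 ± 0.26, adjusted p = 0.42), and Tigit 5.12, 7.61 and 7.92 CPM and 4.42, 4.48 and 7.03 CPM against 44 ± 5.03 CPM (−0.37 ± 0.22, adjusted p = 0.18). Icos, named here after its values were seen, rose from 9.98, 9.97 and 11.2 CPM to 20.7, 20.1 and 26.1 CPM (log2 fold change 1.10 ± 0.11), below the 160.2 ± 4.74 CPM of stimulated cells. Ctla4 was called higher without fresh library 3 (0.38, adjusted p = 0.046) and Tigit lower without treated library 3 (−0.63, adjusted p = 0.031). Direct tests between the inhibitor-treated and the stimulated cells gave log2 fold changes of −3.85, −6.69, −3.05 and −2.84 for these 4 genes.

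Cd69 and Cd44, common markers of activation, were not called. Cd69 read 415, 321 and 345 CPM in fresh cells and 303, 291 and 263 CPM with the inhibitor (log2 fold change −0.34 ± 0.13, adjusted p = 0.054). Cd69 was called lower under 13 of 19 alternatives, with log2 fold changes of −0.33 to −0.47, among them DESeq2 (adjusted p = 0.015), limma voom (adjusted p = 0.038) and leaving out fresh library 2, stimulated library 1 or stimulated library 3 (−0.41, −0.34 and −0.34). Cd44 read 342, 378 and 246 CPM and 333, 309 and 359 CPM (log2 fold change 0.05 ± 0.14, adjusted p = 0.8). Among the 31 genes the largest fall was in Il7r, which encodes the interleukin-7 receptor alpha chain that resting T cells use for survival, from 366, 300.3 and 474 CPM to 41.3, 34.6 and 40 CPM (log2 fold change −3.30 ± 0.17, adjusted p = 2.7e-07).

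Cytokine genes were for the most part induced, and some stood above the level of stimulated cells. Of 28 tested, 18 were called higher, 7 lower and 3 were not called, with a median log2 fold change of 2.74, and of 0.60 over the 13 whose mean log2 CPM was 3 or more. Il2 (ENSMUSG00000027720, chr3:37120523-37125959), the T cell growth factor gene, read 0.225, 0.441 and 0.304 CPM in the fresh libraries and 37.5, 52.1 and 57.7 CPM in the inhibitor-treated ones (log2 fold change 7.23 ± 0.42, adjusted p = 6.5e-07), and its stimulated libraries read 3.95, 3.22 and 1.5 CPM. Every treated library thus lay above every library of the other groups, and the direct test placed Il2 higher with the inhibitor than without (log2 fold change 4.09 ± 0.34, adjusted p = 1.3e-05). Tnf behaved alike in order: 14.6, 11.4 and 9.88 CPM fresh, 125, 143 and 127 CPM with inhibitor and 54, 58.6 and 49.7 CPM stimulated (log2 fold changes 3.47 ± 0.15 over fresh and 1.29 ± 0.14 over stimulated cells).

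Several cytokine genes had no count in fresh cells. Il3, which acts on blood progenitors, and Il23a, a subunit of interleukin-23, had no count in any fresh library and read 13.6, 9.75 and 17.4 CPM and 19.1, 18.5 and 18.7 CPM in the treated ones, at least 602-fold and 831-fold higher against a floor of 3 counts over the group. If both mates of a read pair were counted, the floor is 6 counts and the bounds are 301-fold and 415-fold. Of counts from 1 to 10, 70.6% to 78.5% per library were even, so these lower bounds are the more cautious ones. The costimulatory ligand gene Cd70 was also at 0 in fresh cells and read 4.8, 6.72 and 10.7 CPM with the inhibitor (at least 327-fold higher, or 164-fold with 6 counts). Stimulated cells held 14.3 ± 3.24 CPM of Il3, 2.73 ± 0.726 CPM of Il23a and 0.33 ± 0.134 CPM of Cd70. Il3 was not called against stimulated cells (log2 fold change −0.07 ± 0.25, adjusted p = 0.85), while Il23a and Cd70 were higher with the inhibitor (2.78 ± 0.23 and 4.48 ± 0.44).

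Lif, a cytokine of the interleukin-6 family, and Lta, which encodes lymphotoxin alpha, rose in all treated libraries. Lif went from 0.898, 1.11 and 1.13 CPM to 77.4, 80.5 and 88.1 CPM (log2 fold change 6.28 ± 0.11, adjusted p = 2.1e-09) and Lta from 7.56, 6.38 and 7.31 CPM to 197, 212 and 199 CPM (4.84 ± 0.13, adjusted p = 1.2e-08). Stimulated cells were higher for both, at 338 ± 14.7 CPM and 263 ± 38.7 CPM. Ifng, named after its values were seen, rose from 14.1, 12.4 and 9.58 CPM to 111, 103 and 162 CPM (log2 fold change 3.38 ± 0.21) against 260.1 ± 32.9 CPM in stimulated cells, and Il21, a cytokine of follicular helper cells, was not called (0.499, 0.696 and 0.668 CPM and 1.11, 0.653 and 1.6 CPM, adjusted p = 0.073, with 47.5 ± 14.9 CPM stimulated). Il21 was called higher without treated library 2 (1.13, adjusted p = 0.018), by DESeq2 (0.80, adjusted p = 0.043) and with no filter on low counts (0.82, adjusted p = 0.0051). Tnfsf11, the gene of RANKL, rose from 3.47, 4.57 and 4.74 CPM to 41.8, 47.2 and 60.7 CPM and Tnfsf8, the CD30 ligand gene, from 31, 29.7 and 39.2 CPM to 103, 104 and 123 CPM. Among the cytokine genes that fell were Fasl, the death ligand (26.5, 24.5 and 32.8 CPM to 15.5, 11.3 and 15 CPM), Cd40lg, the B cell help ligand (−0.94 ± 0.21), and Ltb, lymphotoxin beta (−1.09 ± 0.23).

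Chemokine and chemokine receptor genes split, with 11 of 25 called higher, 10 lower and 4 not called. Their median log2 fold change was 0.60, and −1.43 over the 14 whose mean log2 CPM was 3 or more. Ccl3, which attracts monocytes and T cells, read 32.5, 20.2 and 10.2 CPM fresh, 248, 239 and 267 CPM with inhibitor and 12.2, 14.6 and 14.5 CPM stimulated. Ccl3 was thus above both other groups in all treated libraries (log2 fold changes 3.58 ± 0.34 over fresh and 4.19 ± 0.35 over stimulated cells, adjusted p = 1.3e-05 and 1.2e-05). Ccr7, the receptor that brings naive T cells to lymph nodes, read 236, 189 and 319 CPM fresh and 856, 1125 and 1036 CPM treated (log2 fold change 2.02 ± 0.20, adjusted p = 1.8e-05), and stimulated cells held 206 ± 33.1 CPM. Ccr8, a receptor of activated and regulatory T cells, rose from 1.05, 0.881 and 1.28 CPM to 50.8, 64.6 and 68.4 CPM and was not called against the 68.8 ± 1.33 CPM of stimulated cells (direct log2 fold change −0.17 ± 0.13, adjusted p = 0.33). The receptors of effector and gut-homing cells fell: Ccr2 (−5.58 ± 0.44), Ccr9 (−4.82 ± 0.26) and Cxcr3 (−2.16 ± 0.14), as did the chemokine gene Ccl5 (−3.24 ± 0.24).

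Cytotoxic granule genes moved in opposite directions, 5 of 15 higher, 5 lower and 5 not called, with 3 higher when treated library 3 was left out. Gzmb, which encodes the death-inducing protease granzyme B, rose from 22.3, 23.4 and 19.6 CPM to 302, 272 and 306 CPM (log2 fold change 3.75 ± 0.10, adjusted p = 1.2e-08), below the 2955 ± 53.9 CPM of stimulated cells. Gzma, granzyme A, read 147, 160.4 and 182 CPM fresh and 1.08, 0.566 and 0.697 CPM treated (log2 fold change −7.73 ± 0.37, adjusted p = 2.2e-07), while stimulated libraries kept 119, 80.5 and 187 CPM. Prf1, perforin, fell from 80.4, 86.1 and 110.2 CPM to 34.6, 31.5 and 31.8 CPM. NK cell markers, a list of 14 that holds Gzma and Prf1 too, summed to 1014, 1030 and 1100 CPM in fresh libraries. The sum was 435, 459 and 454 CPM in treated and 1209, 1212 and 1356 CPM in stimulated libraries. Of the 14, 13 were called lower than in fresh cells (median −5.67, and −1.5 over the 5 whose mean log2 CPM was 3 or more). As the list holds genes that T cells also express, its sum does not measure NK cells. The part of NK cells in these changes was not tested.

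**Figure D2:**
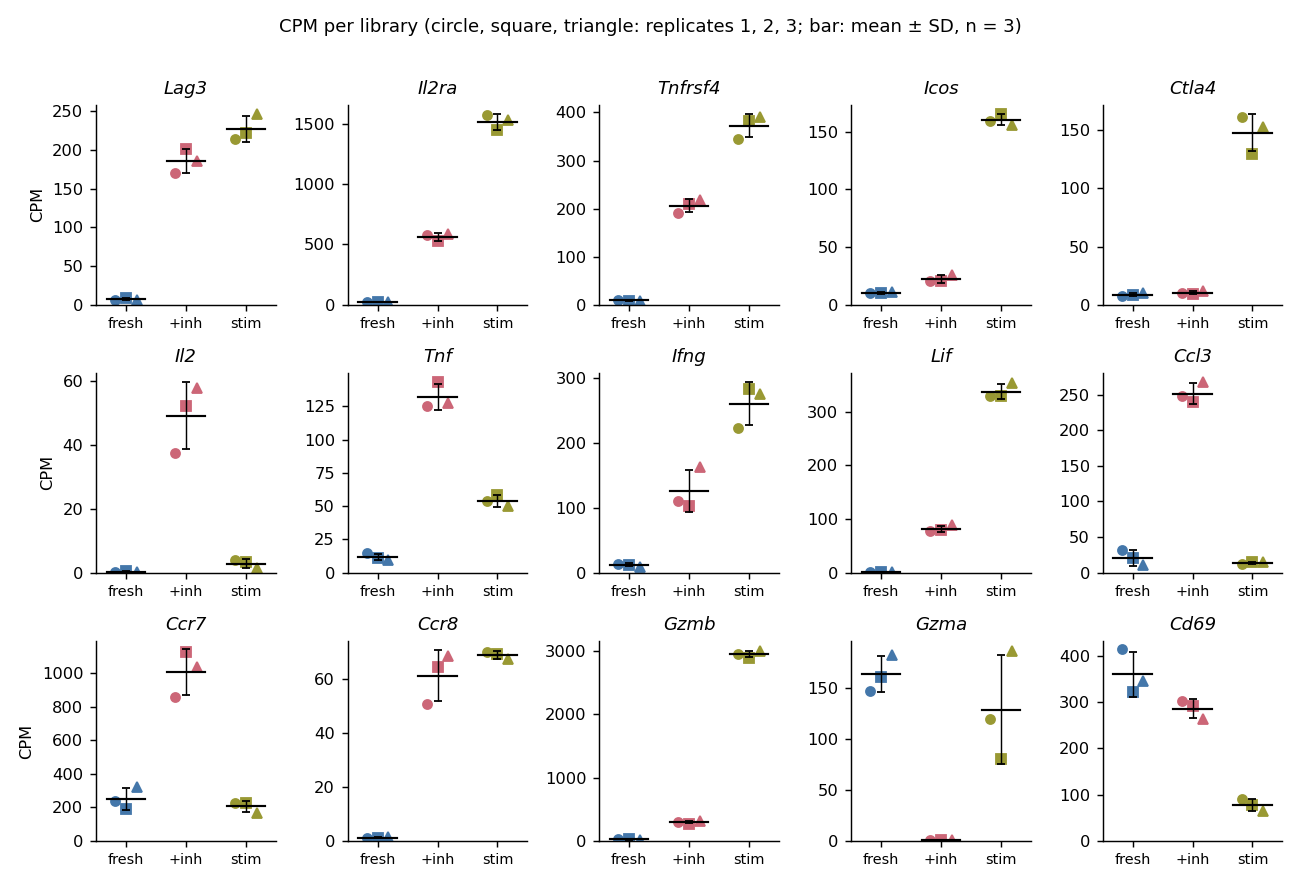
CPM of 15 receptor, cytokine, chemokine and granule genes in each library of fresh (blue), inhibitor-treated (red) and stimulated (olive) cells; black lines are means ± SD (n = 3), and each panel has its own linear axis from 0. Lag3 and Ccr8 are near the stimulated level with the inhibitor, Il2ra, Tnfrsf4, Ifng and Lif lie between, Icos and Ctla4 lie near the fresh level, and Il2, Tnf, Ccl3 and Ccr7 are highest with the inhibitor.

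The genes of all 5 NF-kB subunits were higher in the treated cells. Of 21 subunit, IkB and IkB kinase pathway genes, 10 were called higher, 6 lower and 5 were not called (median log2 fold change 0.27). Nfkb2 (ENSMUSG00000025225, chr19:46304320-46312385), the p100 precursor gene, rose from 85.4, 81.7 and 76.1 CPM to 445, 510.1 and 522 CPM (log2 fold change 2.60 ± 0.10, adjusted p = 7.2e-08), above the 309 ± 33.8 CPM of stimulated cells. Rel, which encodes the c-Rel subunit, rose from 99.1, 113 and 97.6 CPM to 326, 279 and 284 CPM, and Relb from 36.1, 35 and 35.3 CPM to 74.2, 97.6 and 95.1 CPM (log2 fold changes 1.52 ± 0.09 and 1.33 ± 0.12). Nfkb1, the p105 precursor gene, rose by 1.18 ± 0.07 and Rela by 0.57 ± 0.08.

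The IkB genes were not uniform. Nfkbia (ENSMUSG00000021025, chr12:55489410-55492647), which encodes IkB-alpha and is itself an NF-kB target, read 189, 149.5 and 159 CPM fresh and 230.2, 269.6 and 302 CPM treated (log2 fold change 0.69 ± 0.12, adjusted p = 6.3e-04), against 153 ± 5.55 CPM in stimulated cells. Nfkbib, IkB-beta, rose from 29.8, 26.9 and 23.3 CPM to 89.4, 99.6 and 105 CPM, and Nfkbiz, the nuclear IkB-zeta, fell from 209, 205 and 205 CPM to 104, 101 and 90.4 CPM. Upstream of the kinases, Prkcq, protein kinase C theta, fell by 1.38 on the log2 scale.

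Of 40 genes listed as NF-kB targets and feedback regulators, 28 were called higher, 6 lower and 6 were not called (median log2 fold change 0.86). The list shares Il2, Il2ra, Tnf, Lta and Ccl3 with the groups above. Irf4, a transcription factor of activated lymphocytes, rose from 65.6, 76.6 and 37.9 CPM to 1055, 1013 and 915 CPM (log2 fold change 4.05 ± 0.24, adjusted p = 6.4e-07) and was not called against the 1067 ± 105 CPM of stimulated cells (adjusted p = 0.72). Bcl2l1, the survival gene of BCL-XL, went from 33.5, 51.8 and 27.9 CPM to 205, 236 and 252 CPM, with stimulated cells at 217 ± 14.3 CPM. Tnfaip3 (ENSMUSG00000019850, chr10:19000910-19015657), whose product A20 shuts NF-kB signalling down, fell from 618, 491 and 841 CPM to 242, 259 and 254 CPM (log2 fold change −1.37 ± 0.18, adjusted p = 1.2e-04), and its stimulated level was 189.6 ± 26.7 CPM. Not called were Bcl3 (28.4, 32.4 and 18.3 CPM and 31.6, 36.1 and 35.8 CPM, with 105 ± 19.8 CPM stimulated) and Sod2 (41.5, 39.9 and 40 CPM and 39.4, 40.4 and 46.9 CPM, with 78.9 ± 2.81 CPM stimulated), both of which were lower than in stimulated cells in the direct test (−1.60 ± 0.20 and −0.90 ± 0.09). Bcl3, with fresh library 2 left out, was called higher (0.56, adjusted p = 0.039).

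**Figure D3:**
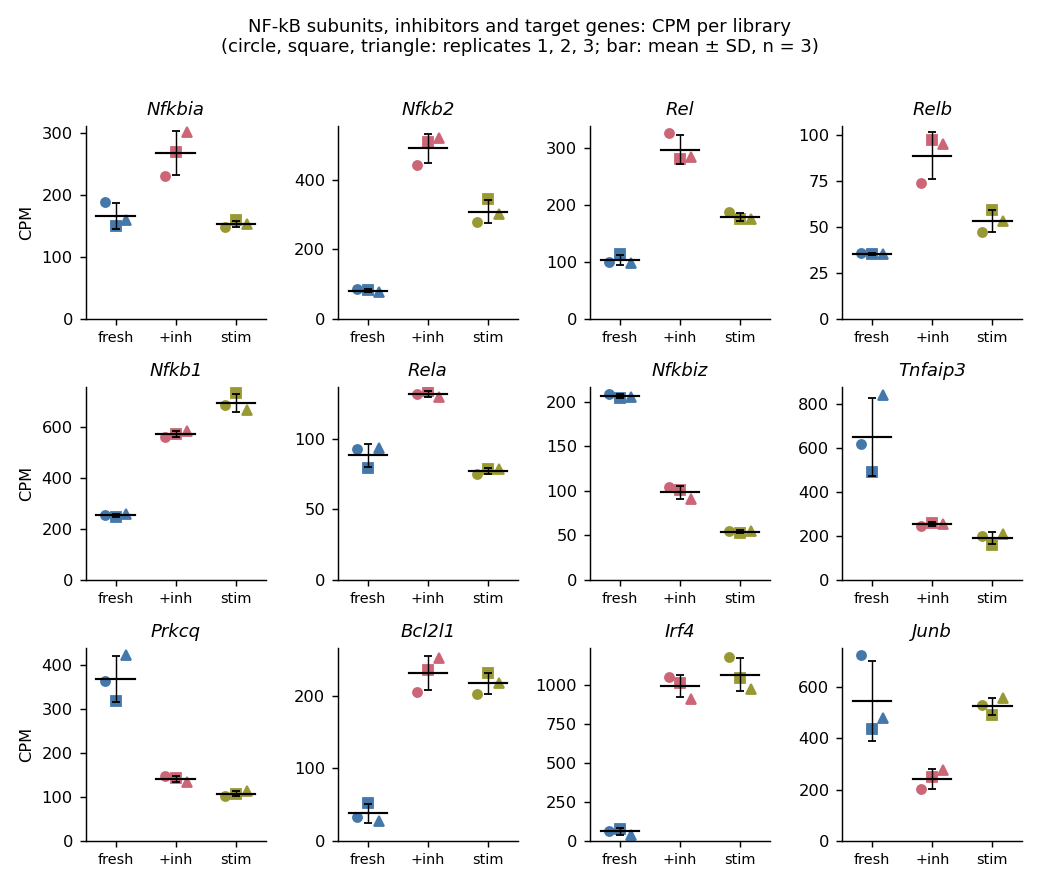
CPM of 12 NF-kB subunit, inhibitor, signalling and target genes in each library of fresh (blue), inhibitor-treated (red) and stimulated (olive) cells, with mean ± SD (n = 3) on linear axes from 0. Nfkbia, Nfkb2, Rel, Relb and Rela are highest in the inhibitor-treated libraries, while Tnfaip3, Nfkbiz and Prkcq are highest in the fresh ones.

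The promoters of 3 of these genes are shown because they hold a match to the NF-kB motif while the genes moved in different directions. They are the 250 bases before the start site in the RefSeq promoter table of GRCm38.p6, in the sense of the gene, with motif matches in capitals. The motifs searched on both strands were GGG, any 2 bases, TTT and CC in a row for NF-kB, TGANTCA for AP-1 and CACGTG for the E-box, and a match may overlap a match of another motif.
Nfkbia, chr12:55492648-55492897, minus strand, rose: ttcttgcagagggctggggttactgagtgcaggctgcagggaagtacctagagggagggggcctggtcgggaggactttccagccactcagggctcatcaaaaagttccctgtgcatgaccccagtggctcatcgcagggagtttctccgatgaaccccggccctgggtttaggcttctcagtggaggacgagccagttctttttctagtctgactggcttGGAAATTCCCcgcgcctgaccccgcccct
Nfkb2, first of 3 listed starts, chr19:46304487-46304736, plus strand, rose: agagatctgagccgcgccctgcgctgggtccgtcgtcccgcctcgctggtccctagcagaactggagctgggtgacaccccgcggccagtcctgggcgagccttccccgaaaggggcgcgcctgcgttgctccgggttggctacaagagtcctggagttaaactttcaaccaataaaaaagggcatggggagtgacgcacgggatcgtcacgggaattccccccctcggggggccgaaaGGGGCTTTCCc
Tnfaip3, first of 2 listed starts, chr10:19015411-19015660, minus strand, fell: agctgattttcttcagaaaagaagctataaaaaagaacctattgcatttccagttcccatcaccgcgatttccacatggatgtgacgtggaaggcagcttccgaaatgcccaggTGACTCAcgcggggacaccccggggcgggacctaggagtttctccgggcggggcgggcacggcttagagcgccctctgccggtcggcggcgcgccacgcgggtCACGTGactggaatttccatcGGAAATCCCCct
Counting back from the start site, the NF-kB match lies at −29 to −20 in Nfkbia, −11 to −2 in Nfkb2 and −12 to −3 in Tnfaip3. Tnfaip3 also holds an AP-1 match at −136 to −130 and an E-box at −33 to −28. The other Nfkb2 starts, not shown, hold matches too. One has an AP-1 match at −210 to −204 and an NF-kB match 11 to 20 bases past the start. The other has an NF-kB match at −225 to −216.

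Over the 300 bases from 250 before to 50 after each start, the NF-kB motif was present in 2.09% of the 11447 tested genes with a promoter in the table (239 genes) and in 1.89% of all 27025 genes in the table. It was present in 2.37% of genes called higher (83 of 3505), in 2.10% of those called lower (65 of 3098), and in 17.6% of the NF-kB target list (6 of 34). The AP-1 motif was in 6.57% of tested genes, in 5.71% of those called higher and in 8.62% of those called lower. These are counts of letters in a window and not of bound sites.

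Genes that respond within minutes of receptor signalling were mostly lower than in fresh cells. Of 27 immediate early genes, 8 were called higher, 15 lower and 4 were not called (median log2 fold change −0.75). Fos, a subunit of AP-1, read 1011, 768 and 419.6 CPM in fresh libraries and 9.54, 12.5 and 10.4 CPM in treated ones (log2 fold change −6.08 ± 0.31, adjusted p = 2.9e-07), and stimulated cells held 10.4 ± 0.12 CPM. Fosb fell from 741, 657 and 217 CPM to 9.46, 11.4 and 6.5 CPM, Dusp1, a MAP kinase phosphatase gene, from 684, 566 and 309.8 CPM to 26.3, 27 and 26.7 CPM, and Junb from 727, 436 and 481 CPM to 202, 248 and 277 CPM. Fresh libraries differed among themselves for these genes, with the lowest values of Fos, Fosb and Dusp1 in library 3. Against this direction, the nuclear receptor gene Nr4a3 rose from 47.4, 28.9 and 35.6 CPM to 768, 686 and 726 CPM (log2 fold change 4.28 ± 0.19, adjusted p = 1.3e-07), above its stimulated 289.8 ± 46 CPM. The phosphatase gene Dusp4 rose from 7.19, 7.51 and 5.75 CPM to 132, 150.2 and 163 CPM and Dusp5 from 78.3, 65.6 and 93.6 CPM to 183, 195 and 192 CPM.

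The calcium and NFAT list fell more than it rose: 4 of 24 were called higher, 13 lower and 7 were not called (median −0.43). Orai1, the store-operated calcium channel gene, rose from 46.3, 36.2 and 40.2 CPM to 58.1, 83.4 and 77.5 CPM, whereas its relative Orai2 fell from 164, 125 and 215 CPM to 26.4, 35.4 and 31.1 CPM. The inositol trisphosphate receptor genes Itpr2 and Itpr3 fell by 1.26 and 1.48 on the log2 scale. Nfatc1 was not called (268, 254 and 281 CPM and 292, 274 and 259.5 CPM, adjusted p = 0.69).

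Among 32 transcription factors of activated and effector T cells, 15 were called higher, 11 lower and 6 were not called (median 0.16). Besides Irf4, the activation-induced repressor gene Bhlhe40 rose from 71.2, 85.6 and 67.4 CPM to 461, 404 and 442 CPM (log2 fold change 2.54 ± 0.10, adjusted p = 7.2e-08). Batf, an AP-1 family partner of IRF4, was not called (11.4, 10.9 and 10.5 CPM and 11.1, 13.4 and 17.3 CPM, adjusted p = 0.068) and neither was Nfil3 (10.9, 14.4 and 11.6 CPM and 8.67, 10.5 and 11.5 CPM, adjusted p = 0.12), although stimulated cells held 57.4 ± 0.139 CPM and 181 ± 9.51 CPM. Without treated library 1, Batf was called higher (0.49, adjusted p = 0.0089). Prdm1, the gene of BLIMP-1, fell from 25.3, 29.7 and 28.5 CPM to 3.47, 2.26 and 3.44 CPM and Maf from 41.9, 43.3 and 40 CPM to 7.18, 6.83 and 10 CPM. Zeb2, which myeloid and NK cells also express, fell by 2.12 on the log2 scale.

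Genes of the naive and quiescent state fell in the inhibitor-treated cells. Of 43 genes of that state, 34 were called lower, 4 higher and 5 were not called (median log2 fold change −1.38). Their summed level was 17067, 14379 and 18876 CPM in fresh libraries and 8177, 8415 and 8089 CPM in treated ones. Klf2, the transcription factor gene that maintains quiescence and lymphoid recirculation, fell from 684, 523 and 542 CPM to 20.1, 26 and 21.6 CPM (log2 fold change −4.69 ± 0.16, adjusted p = 3.4e-08), yet stayed above the 3.74 ± 0.52 CPM of stimulated cells (direct log2 fold change 2.59 ± 0.15, adjusted p = 1.7e-06). S1pr1, the receptor for exit from lymphoid organs, went from 384, 353 and 575 CPM to 27.3, 20.6 and 16.7 CPM, and was not called against the 20.7 ± 4.29 CPM of stimulated cells (adjusted p = 0.87). Txnip, which restrains glucose uptake, fell from 688, 492 and 749 CPM to 54.6, 55.6 and 50.3 CPM, and Tsc22d3, the glucocorticoid-induced leucine zipper gene, from 516, 374 and 460.4 CPM to 35.5, 44.8 and 36.7 CPM.

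The fall was smaller for Tcf7, the TCF1 gene, which went from 807, 661 and 917 CPM to 522, 519 and 469 CPM (−0.66 ± 0.12, adjusted p = 0.0012), with stimulated cells at 167 ± 15.4 CPM. Tcf7 was thus lower than in fresh cells and higher than in stimulated cells in every treated library. The 4 members that rose were Ccr7, described above, Satb1, named after its values were seen (0.40 ± 0.11, not called under upper-quartile scaling, adjusted p = 0.070), Bach2, a repressor of effector genes (260.2, 224 and 253 CPM to 391, 402 and 384 CPM), and Tsc1, a brake on mTOR (73.7, 73.1 and 78.3 CPM to 108, 113 and 102 CPM), and both Bach2 and Tsc1 also exceeded the stimulated level (198 ± 13.1 and 42.4 ± 0.432 CPM).

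Adhesion and homing genes followed, with 12 of 21 lower, 4 higher and 5 not called (median −0.61). The integrin genes Itga4 and Itgb7, which pair as the gut-homing receptor, fell by 2.36 and 2.10 on the log2 scale, while Icam1, a ligand of LFA-1, rose from 52.9, 48.6 and 46.1 CPM to 88.5, 93.1 and 93.3 CPM. Of 8 GIMAP GTPase genes, which support survival of resting lymphocytes, 5 fell, 3 were not called and none rose. The larger falls were in Gimap6 (−1.12 ± 0.14) and Gimap7 (−0.95 ± 0.15).

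Genes of ribosome production rose almost without exception, while the MYC network did not move as a whole. Myc, the growth factor-induced transcription factor gene, read 88.1, 89.2 and 86.8 CPM fresh and 285, 273 and 291 CPM treated (log2 fold change 1.69 ± 0.08, adjusted p = 2.2e-07), and stimulated cells held 382 ± 37.2 CPM. The 12 genes of the MYC network held 3 that rose and 6 that fell (median −0.25, and 0.15 over the 9 whose mean log2 CPM was 3 or more). The median of all genes at that level was also 0.15. The antagonist genes Mxd1 and Mxd4 fell by 1.23 and 1.42 on the log2 scale. In the ribosome biogenesis list, 43 of 44 genes were called higher, 0 lower and 1 was not called, with a median log2 fold change of 1.08, and the treated libraries lay above all fresh ones for 42 of the 44. The summed level was 3273, 3011 and 2900 CPM in fresh libraries and 6022, 6780 and 7422 CPM in treated ones. Npm1, nucleophosmin of the nucleolus, rose from 344, 330.1 and 314 CPM to 1104, 1141 and 1282 CPM (log2 fold change 1.84 ± 0.10, adjusted p = 4.6e-07), and Polr1c, a subunit of RNA polymerases I and III, from 22.9, 21.8 and 20.2 CPM to 55.5, 72 and 75.4 CPM. Tsr1, a factor of small ribosomal subunit maturation, rose from 57.9, 51 and 56.5 CPM to 139, 162 and 177 CPM, above the 113 ± 11 CPM of stimulated cells, while the member that was not called was Ubtf (161, 141 and 149.9 CPM and 127, 149 and 153 CPM, adjusted p = 0.52), an RNA polymerase I factor.

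The E-box CACGTG, the letters to which MYC and MAX dimers bind, was present in the promoter window of 8 of the 40 ribosome biogenesis genes with a promoter in the table, against 11.3% of tested genes, 13.1% of genes called higher and 11.0% of those called lower. One example is the 250 bases before the start of Nop2, a methyltransferase gene of the large ribosomal subunit RNA, chosen after its values were seen. Nop2 rose from 41.7, 37.9 and 35.5 CPM to 83.2, 87.2 and 102 CPM (log2 fold change 1.24 ± 0.10), and the capitals mark the E-box at −60 to −55.
Nop2, chr6:125131633-125131882, plus strand: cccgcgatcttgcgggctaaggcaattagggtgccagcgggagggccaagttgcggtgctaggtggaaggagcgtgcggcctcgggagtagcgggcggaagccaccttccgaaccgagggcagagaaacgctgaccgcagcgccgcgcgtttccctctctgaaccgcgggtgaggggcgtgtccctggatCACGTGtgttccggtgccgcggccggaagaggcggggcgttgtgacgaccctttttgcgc

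Genes of translation rose as well. Of 47 cytosolic ribosomal protein genes, 33 were called higher, 0 lower and 14 were not called, with a median log2 fold change of 0.64. Inhibitor-treated library 1 was the lowest of its group for 43 of the 47. Without it 41 of 47 were called higher (median 0.82), without fresh library 2 there were 25 (median 0.56), and without treated library 2 there were 23. The summed level was 29683 CPM in treated library 1 against 40188 and 41751 CPM in the other treated and 26559, 19382 and 23278 CPM in the fresh libraries. Rps2 rose from 328, 329 and 326 CPM to 821, 773 and 799 CPM (log2 fold change 1.29 ± 0.07, adjusted p = 6.4e-07). All 20 cytosolic aminoacyl-tRNA synthetase genes, whose enzymes charge tRNAs with amino acids, were called higher (median 1.69), with the treated libraries above the fresh ones for every one of the 20. Aars, the alanine enzyme, rose from 49.2, 65.3 and 43.2 CPM to 284, 279 and 277 CPM and Iars, the isoleucine enzyme, from 88.5, 91.2 and 74.3 CPM to 356, 391 and 382 CPM. Among 35 initiation factor genes, 30 were higher, 1 lower and 4 not called (median 0.89), among them Eif1a, from 36, 40.8 and 34.6 CPM to 133, 122 and 133 CPM.

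Amino acid supply and the ATF4 response, which raises transporter and synthesis genes when amino acids run short, held some of the largest increases. Of 37 genes, 31 were called higher, 3 lower and 3 were not called. The median log2 fold change was 2.44, and 1.72 over the 28 whose mean log2 CPM was 3 or more. Bcat1, the cytosolic branched-chain aminotransferase, rose from 1.17, 1.72 and 0.871 CPM to 129.7, 122 and 130.1 CPM (log2 fold change 6.67 ± 0.19, adjusted p = 1.6e-08), and the neutral amino acid transporter gene Slc1a4 from 1.35, 1.95 and 1.4 CPM to 48.5, 54.2 and 54.6 CPM (5.07 ± 0.16, adjusted p = 2.9e-08). Neither was called in the direct test against stimulated cells (log2 fold changes −0.37 ± 0.14 and 0.24 ± 0.13, adjusted p = 0.059 and 0.17). Atf5, a transcription factor of the same response, rose from 4.94, 4.13 and 3.95 CPM to 102, 116 and 107 CPM, above its stimulated 30.5 ± 0.545 CPM (direct log2 fold change 1.83 ± 0.10, adjusted p = 1.2e-06). Sesn2, a leucine sensor of the mTOR pathway, rose from 15.7, 13 and 9.6 CPM to 73.2, 102 and 95.2 CPM. The 3 members that fell were Ddit4 (−1.14 ± 0.18), an mTOR inhibitor gene, Cebpb (−1.14 ± 0.25) and Ppp1r15a (−1.85 ± 0.16), which directs dephosphorylation of eIF2-alpha.

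Nucleotide and one-carbon synthesis genes rose in 25 of 33 cases, fell in 3 and were not called in 5 (median 0.95). Mthfd2, the mitochondrial folate enzyme of activated T cells, read 28.4, 28.8 and 26 CPM fresh, 234, 272 and 301 CPM treated and 361 ± 36.9 CPM in stimulated cells (log2 fold change over fresh 3.28 ± 0.12, adjusted p = 4.4e-08). Shmt2, the mitochondrial serine hydroxymethyltransferase, rose from 53.4, 61.8 and 52.7 CPM to 273, 305 and 330.3 CPM and Ctps, CTP synthase, from 19.6, 24.4 and 18.7 CPM to 54.7, 68.3 and 76.7 CPM. In the direct test 28 of these 33 genes were lower than in stimulated cells and 2 were higher, where 22.8% of all tested genes were lower and 21.7% higher (44.5% called). The ribonucleotide reductase genes Rrm1 (58.8, 137 and 48.2 CPM and 101, 99.4 and 149.6 CPM) and Rrm2 (19.6, 74.4 and 9.56 CPM and 29.5, 28.6 and 56.1 CPM), needed for DNA building blocks, were not called (adjusted p = 0.21 and 0.86), and in both of them fresh library 2 was the highest of the fresh libraries. Without it both were called higher (1.13 and 1.39, adjusted p = 4.5e-04 and 0.0069).

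Most listed glycolysis genes rose over the fresh level, and most stayed below the stimulated one. Of 23, 15 were called higher, 4 lower and 4 were not called (median log2 fold change 0.67), and in the direct test 21 were lower than in stimulated cells and 0 higher (median −2.18). Hk2, the inducible hexokinase, read 19.6, 22.7 and 10.5 CPM fresh, 96.9, 109 and 137 CPM treated and 408 ± 26.1 CPM stimulated (adjusted p = 1.2e-05 over fresh cells). Pgk1, phosphoglycerate kinase, read 32.3, 30.4 and 33.5 CPM, 83.8, 125 and 137 CPM and 671 ± 21.5 CPM in that order, and Aldoa, aldolase A, 194, 202 and 199 CPM, 489, 546 and 539 CPM and 1952 ± 50.9 CPM. Both were intermediate in every treated library. The enolase gene Eno2, which the list does not hold, read 68.4 ± 5.48 CPM treated and 67.1 ± 4.67 CPM stimulated, as described below. Slc16a3, the lactate exporter gene, fell instead, from 40.3, 40.5 and 25.7 CPM to 9.27, 9.23 and 9.26 CPM, with 238 ± 7.7 CPM in stimulated cells, and Pdk1, which keeps pyruvate out of the mitochondrion, fell from 75.3, 84.4 and 120.1 CPM to 42.9, 39.9 and 44 CPM.

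Other hypoxia target genes were divided, 10 of 23 higher, 7 lower and 6 not called. Their median was 0.31, and −0.02 over the 13 whose mean log2 CPM was 3 or more. Vegfa, the vascular growth factor gene, rose from 5.17, 4.27 and 1.88 CPM to 34.8, 36.9 and 39.8 CPM (log2 fold change 3.31 ± 0.29). Egln3, a prolyl hydroxylase gene induced by HIF, was not called (3.67, 2.81 and 3.24 CPM and 3.52, 3.33 and 3.96 CPM, adjusted p = 0.29), while stimulated cells held 278 ± 16.6 CPM.

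Mitochondrial genes rose moderately. Nuclear-encoded oxidative phosphorylation genes were higher in 25 of 41 cases, lower in 0 and not called in 16 (median 0.54). Treated library 1 was the lowest of its group for all 41, and without it 37 were called higher (median 0.72). In a list of 27 citric acid cycle genes, 17 were higher, 2 lower and 8 not called (median 0.46). Cs, citrate synthase, rose from 127, 139.8 and 123 CPM to 223, 253 and 260.5 CPM. The list also holds Idh1, the cytosolic isocitrate dehydrogenase, which acts outside the mitochondrial cycle. Idh1 fell from 17.6, 24.1 and 15.3 CPM to 5.77, 6.07 and 5.12 CPM and was 1 of the 2 called lower. Of 12 mRNAs encoded by mitochondrial DNA 10 rose and 2 were not called (median 1.37), and together they took 0.914% to 1.26% of the counts in fresh and 2.4% to 2.88% in treated libraries. mt-Co1, cytochrome c oxidase subunit I, rose from 6286, 6013 and 5714 CPM to 18294, 14738 and 14441 CPM (log2 fold change 1.40 ± 0.13, adjusted p = 1.5e-05).

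Cholesterol synthesis genes, controlled by SREBP2, were called higher in 23 of 25 cases and not called in 2 (median 1.17). Idi1, an isomerase of the isoprenoid steps, rose from 7.26, 7.42 and 5.77 CPM to 27.7, 31.7 and 40.7 CPM (log2 fold change 2.29 ± 0.16, adjusted p = 2.2e-06), with 47 ± 2.71 CPM in stimulated cells. The opposite arm fell: of 10 LXR target and cholesterol efflux genes, 7 were lower and 3 higher. Their median was −2.09, and −1.4 over the 8 whose mean log2 CPM was 3 or more. Abca1, the cholesterol exporter, fell from 99.3, 106 and 104 CPM to 3.47, 4.29 and 3.38 CPM (log2 fold change −4.79 ± 0.12, adjusted p = 8.8e-09), below the 29.1 ± 1.7 CPM of stimulated cells, and Mylip, which degrades the LDL receptor, from 87.4, 81.2 and 86.7 CPM to 9.43, 10.1 and 7.3 CPM. The members that rose were Scd2, a fatty acid desaturase (55.1, 73.2 and 44.9 CPM to 143, 133 and 141 CPM, with 1402 ± 83.5 CPM stimulated), Nr1h2, the LXR-beta gene, and Srebf1 (0.32 ± 0.11, adjusted p = 0.032). Srebf1 was not called by DESeq2 (adjusted p = 0.056), under upper-quartile scaling (adjusted p = 0.094), or without fresh library 1, fresh library 2, treated library 2 or treated library 3 (adjusted p = 0.077, 0.075, 0.14 and 0.094).

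**Figure D4:**
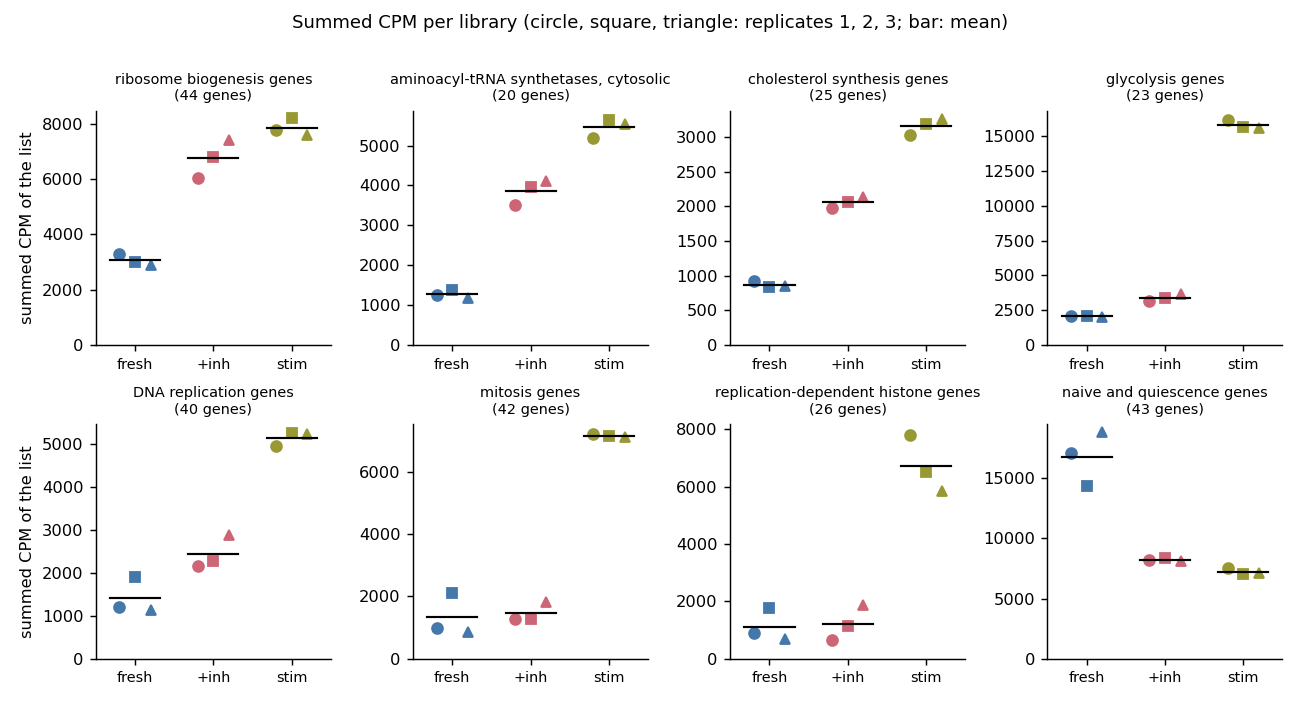
Summed CPM over the tested genes of 8 lists in each library of fresh (blue), inhibitor-treated (red) and stimulated (olive) cells; black lines are group means and axes start at 0. Ribosome biogenesis, aminoacyl-tRNA synthetase and cholesterol synthesis sums with the inhibitor lie between those of fresh and stimulated cells without overlap, glycolysis sums lie near fresh cells, and for mitosis and histone genes fresh library 2 (square) and treated library 3 (triangle) stand above their groups.

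Proteasome genes rose as a group. Of 36 proteasome subunit genes 34 were called higher, 1 lower and 1 not called (median log2 fold change 0.88). Psme2, part of the activator induced by interferon gamma, rose from 60.2, 44.2 and 50.9 CPM to 112, 162 and 185 CPM, and Psmb10, an immunoproteasome subunit, was the one that fell (−0.67 ± 0.16). Among 22 unfolded protein response genes, 17 were higher, 4 lower and 1 not called (median 0.56). Among 29 chaperone and heat shock genes, 19 were higher, 3 lower (5 without fresh library 3) and 7 not called (median 0.84), with the mitochondrial chaperone genes Hspa9 (159, 149.6 and 142 CPM to 628, 692 and 732 CPM) and Hspd1 (150.3, 138 and 101 CPM to 433, 445 and 554 CPM) among those that rose most. Heat-inducible genes varied between fresh libraries: Hspa1a read 74.6, 20.4 and 1.01 CPM there and 10.7, 18 and 14.7 CPM in treated cells and was not called (log2 fold change −1.14 ± 0.94). Without fresh library 1 its log2 fold change was 0.44, and without fresh library 3 it was called lower (−1.71, adjusted p = 0.013). Lysosomal genes showed no common direction, 9 of 32 higher, 13 lower and 10 not called (median −0.03). Psap, which encodes sphingolipid activator proteins, fell from 777, 884 and 695 CPM to 225, 281 and 292 CPM. Myeloid markers fell in the same comparison, and their part in this decrease was not tested.

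Genes of DNA replication rose, while those of mitosis did not move as a group. Of 40 DNA replication genes 31 were called higher, 1 lower and 8 were not called (median log2 fold change 0.94). Their sum was 1210, 1892 and 1141 CPM in fresh and 2153, 2267 and 2883 CPM in treated libraries, so that each treated library lay above each fresh one. Orc1, a subunit of the origin recognition complex, read 2.3, 12.7 and 1.86 CPM fresh and 20.5, 20.8 and 28.5 CPM treated (log2 fold change 2.05 ± 0.59, adjusted p = 0.014), and Cdc45, part of the replicative helicase, 4.09, 15.6 and 3.65 CPM and 25.7, 22.6 and 38.7 CPM. All treated libraries exceeded all fresh ones for both genes, and fresh library 2 was above the other fresh libraries. Leaving out fresh library 2 gave log2 fold changes of 3.49 for Orc1 and 2.91 for Cdc45. In the direct test 38 of the 40 were lower than in stimulated cells and 0 higher (median −1.14).

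For 42 mitosis genes 3 were called higher, 4 lower and 35 were not called (median log2 fold change 0.22), with 2 and 1 lower when treated library 1 or 2 was left out. This count depends on fresh library 2, which was the highest fresh library for 41 of the 42: without it 26 were higher and 2 lower (median 0.95), and without both it and treated library 1, 29 were higher and 2 lower (median 1.07). Mki67, the proliferation marker Ki-67, read 97.1, 377 and 46.5 CPM in fresh and 87.5, 79.6 and 185 CPM in treated libraries (log2 fold change −0.56 ± 0.62, adjusted p = 0.47), and 887, 898 and 833 CPM in stimulated ones. Top2a, DNA topoisomerase II alpha, read 50, 178 and 36.6 CPM and 111, 116 and 211 CPM (adjusted p = 0.25) against 954 ± 23.3 CPM in stimulated cells. When fresh library 2 was left out, the log2 fold change of Mki67 was 0.71 (adjusted p = 0.14) and Top2a was called higher (1.76, adjusted p = 4.0e-04). With no filter on low counts Mki67 was called lower (−0.57, adjusted p = 0.029) and Top2a higher (0.72, adjusted p = 6.5e-04). The ranges of fresh and treated libraries overlapped for both genes, and all stimulated libraries lay above them. Cenpa, the centromeric histone gene, was one of those called lower, from 22.2, 38.1 and 26.1 CPM to 7.51, 6.12 and 7.46 CPM. In the direct test 41 of the 42 genes were lower than in stimulated cells and 0 higher (median −3.03).

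Replication-dependent histone genes were also mostly not called. Of 26, 1 was called higher, 1 lower and 24 were not called (median 0.04), while without fresh library 2, 8 were higher and 1 lower (median 0.87) and without treated library 1 as well 16 were higher and 1 lower (median 1.16). For all 26 genes fresh library 2 was the highest fresh library, treated library 3 the highest treated library and treated library 1 the lowest. All 26 were lower than in stimulated cells in the direct test (median −2.74). The erythroid and neutrophil markers were also highest in fresh library 2 (1086 and 2479 CPM summed, against 60.1 to 587 CPM and 418 to 949 CPM in the other fresh libraries), and their part in the cell cycle values of that library was not tested.

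Among 26 G1 cyclin, kinase and inhibitor genes, 12 were higher, 8 lower and 6 not called (median 0.50). Cdkn1a, which encodes the cell cycle inhibitor p21, rose from 3.37, 3.99 and 2.63 CPM to 30.7, 31.9 and 41.4 CPM (log2 fold change 3.38 ± 0.16, adjusted p = 2.2e-07), short of 226 ± 5.16 CPM in stimulated cells. Cdk6, a G1 kinase gene, rose from 135, 213 and 115 CPM to 351, 337 and 377 CPM, and E2f3 from 7.76, 18.6 and 8.67 CPM to 40.6, 38.3 and 48.6 CPM. The quiescence-linked inhibitor genes Cdkn1b (p27) and Cdkn2d (p19) fell by 1.15 and 1.17 on the log2 scale.

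Survival genes of the BCL2 family moved both ways, 7 of 16 higher, 6 lower and 3 not called (median −0.01). Bcl2 was not called (353, 284 and 350.1 CPM and 278, 292 and 286 CPM, log2 fold change −0.20 ± 0.09, adjusted p = 0.094), but it was called lower under 6 of 19 alternatives, among them DESeq2 (−0.26, adjusted p = 0.027), upper-quartile scaling (−0.30, adjusted p = 0.043) and leaving out fresh library 2 (−0.30, adjusted p = 0.0090). Beside Bcl2l1, described above, Bcl2l2, the gene of BCL-w, rose from 4.02, 4.08 and 4.03 CPM to 19.8, 20.4 and 21.1 CPM. Mcl1 fell from 608, 477 and 464 CPM to 337, 341 and 351 CPM, and the death-promoting genes Bmf and Pmaip1 (NOXA) fell by 1.24 and 0.97 on the log2 scale. Among 26 p53 response genes, 13 were higher, 6 lower and 7 not called (median 0.48). Trp53 itself rose from 107, 103 and 94.8 CPM to 145, 164 and 163 CPM (log2 fold change 0.63 ± 0.10, adjusted p = 4.0e-04), whereas Mdm2, a p53 target and regulator, was not called (84.4, 78.5 and 81.6 CPM and 68.5, 76.8 and 79.8 CPM, adjusted p = 0.24).

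Antiviral interferon-stimulated genes were lower in 31 of 38 cases, higher in 3 and not called in 4. Their median log2 fold change was −2.15, and −0.86 over the 20 whose mean log2 CPM was 3 or more. Irf7, the factor that amplifies type I interferon, fell from 46.8, 41.9 and 33.4 CPM to 2.6, 1.65 and 2.28 CPM (log2 fold change −4.23 ± 0.21, adjusted p = 2.5e-07), and Ddx58, the RNA sensor RIG-I, from 107, 102 and 109.8 CPM to 17.5, 14.9 and 13.8 CPM (−2.79 ± 0.12, adjusted p = 9.8e-08). Every treated library lay below every fresh one for both. Myeloid and B cell markers fell in the same comparison, and their part in these decreases was not tested.

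Many GTPases induced by interferon gamma rose. In the list that joins them with the p200 family, 11 of 25 were higher, 10 lower and 4 not called. The median was 0.08, and 0.74 over the 18 whose mean log2 CPM was 3 or more. Gbp5, a guanylate-binding protein gene of inflammasome and pathogen defence, rose from 49.3, 42.7 and 50.1 CPM to 382, 361 and 323 CPM (log2 fold change 2.91 ± 0.11, adjusted p = 4.4e-08), above its stimulated 143 ± 12.2 CPM, and Gbp2 and Igtp, named after their values were seen, rose from 47.1, 47.5 and 56.7 to 344, 329 and 298 CPM and from 83.1, 53.4 and 75.5 to 352, 418 and 403 CPM. All 11 members called higher were of the Gbp family or the immunity-related GTPases. The 10 that fell were 8 p200 genes, which encode nucleic acid sensors and nuclear proteins, and 2 Gbp genes, Gbp3 and Gbp9, chosen for mention after their values were seen. The fall of Gbp3 (−0.31 ± 0.11, adjusted p = 0.032) was not called without fresh library 1 or 3, stimulated library 2 or any one treated library (adjusted p from 0.052 to 0.11). The p200 family member Aim2 was not called (25.8, 27.4 and 25.5 CPM and 28.8, 24.2 and 22.6 CPM, adjusted p = 0.72). Ifi213 fell from 83.6, 70.5 and 93.9 CPM to 0.894, 0.871 and 0.574 CPM and Ifi203 from 199.5, 180.1 and 223 CPM to 23.2, 17.2 and 17.2 CPM. These families hold near-identical gene copies, between which the deposited counts may be split.

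**Figure D5:**
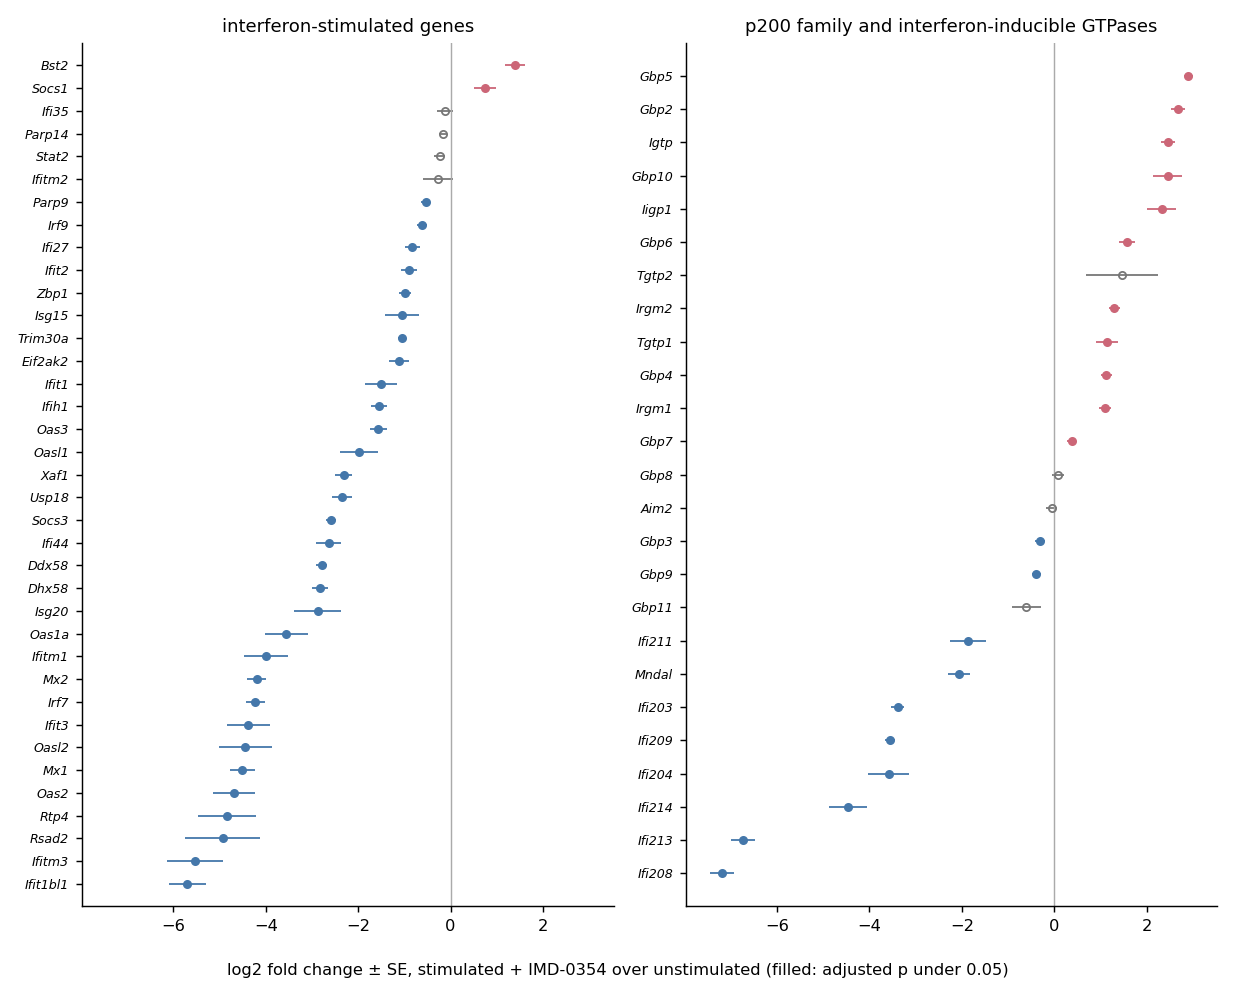
Log2 fold change ± SE of inhibitor-treated over unstimulated cells for all but 1 of the 38 tested interferon-stimulated genes (left) and each p200 and interferon-inducible GTPase gene (right); filled points were called, red higher and blue lower, and open points were not. Left of 0 lie 31 called antiviral genes, while on the right panel 11 called GTPase genes lie above 0 and the Ifi genes below it.

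Among 19 MHC class I presentation genes, 13 were higher, 1 lower and 5 not called (median 0.41), with Tap1, the peptide transporter gene, going from 171, 156 and 178 CPM to 309, 355 and 348 CPM and H2-K1, a classical class I heavy chain, not called (1419, 1100.4 and 1427 CPM and 1224, 1405 and 1406 CPM, adjusted p = 0.83). Among 18 regulatory T cell genes, 8 were higher, 5 lower and 5 not called (median 0.27, and 0.85 over the 13 whose mean log2 CPM was 3 or more). Those that rose include Il2ra, Tnfrsf4 and Tnfrsf18, which all activated T cells express, and Ikzf4, the gene of Eos (11.6, 8.35 and 9.56 CPM to 63.4, 68.3 and 67.9 CPM), whereas Foxp3, the defining factor of the lineage, fell from 26.2, 24.2 and 18.3 CPM to 6.26, 7.86 and 7.42 CPM (log2 fold change −1.67 ± 0.17, adjusted p = 2.6e-05). Of 12 CD8 lineage genes 10 fell and 2 were not called (median −1.38). Klrd1 and Klrk1, receptors of CD8 T cells that NK cells share, fell by 2.90 and 2.85 on the log2 scale.

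Xist (ENSMUSG00000086503, chrX:103460366-103483254), the RNA that coats the inactive X chromosome, read 1584, 2088 and 1815 CPM in fresh and 3229, 2655 and 2595 CPM in inhibitor-treated libraries (log2 fold change 0.63 ± 0.13, adjusted p = 0.0027), and 2421, 2137 and 2056 CPM in stimulated ones. Every treated library was above every fresh library for Xist. Of 29 genes of X inactivation factors 11 rose, 4 fell and 14 were not called (median 0.23). Over all genes tested 52.4% were called. The shares called among these factors and among the escape genes below were near that. The Polycomb genes Ezh2 (34.1, 58.2 and 23.7 CPM to 154, 154 and 199 CPM, log2 fold change 2.13 ± 0.27) and Pcgf5 (17, 19.6 and 19 CPM to 71.2, 75.3 and 79.1 CPM, 2.02 ± 0.09) rose, and Lbr, which tethers the inactive X to the nuclear envelope, fell from 281, 292 and 315 CPM to 144, 149.9 and 166 CPM. Spen, which binds Xist to silence genes, was not called (323, 252 and 271 CPM and 289, 280.0 and 273 CPM, adjusted p = 0.97). Of 11 genes known to escape X inactivation 4 rose, 2 fell and 5 were not called. Of 15 X-linked immune genes 10 fell, 1 rose and 4 were not called (median −0.94). Among those that fell, Tlr7 (−2.92 ± 0.27) and Cybb (−3.70 ± 0.39) are genes of B and myeloid cells, whose markers fell in the same libraries. The part of those cells in these falls was not tested.

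Outside these groups, the 15 largest increases over fresh cells among called genes whose mean log2 CPM reached 3 and whose libraries did not overlap included 4 more genes. Mir155hg, the host transcript of the microRNA miR-155, rose from 1.37, 0.927 and 0.993 CPM to 58.9, 55.9 and 57.5 CPM (log2 fold change 5.71 ± 0.16, adjusted p = 1.6e-08), and Eno2, the neuronal enolase isoform, from 1.67, 1.51 and 1.62 CPM to 68.4, 73.8 and 62.9 CPM (5.42 ± 0.12). Neither was called against stimulated cells (48.8 ± 4.86 CPM and 67.1 ± 4.67 CPM, direct adjusted p = 0.16 and 0.84). Rgs16, a regulator of G protein signalling, rose from 8.86, 9.37 and 7.68 CPM to 199.8, 215 and 221 CPM, above its stimulated 61.4 ± 5.61 CPM. Lad1, which encodes ladinin, read 0.25, 1.25 and 1.17 CPM fresh and 170.4, 148 and 38.6 CPM treated, with treated library 3 below the other treated libraries, and was called by edgeR (adjusted p = 0.0014) but not by limma voom (adjusted p = 0.061). The 15 largest decreases among called genes at or above that level whose libraries did not overlap held 5 immunoglobulin constant region genes, Igha, Igkc, Ighg1, Ighg2b and Ighg2c, and the plasma cell gene Jchain, with the myeloid genes Csf3r, Lyz2 and Plbd1. Immunoglobulin genes took 0.269% to 0.752% of the counts in fresh libraries and 0.0151% to 0.0186% in treated ones.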

How the data were processed

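RNA was measured by total RNA sequencing in 9 libraries, 3 per group. The authors deposited whole-number read counts per gene. STAR 2.7.1a, featureCounts and mm10 are named in the submitters' processing notes, and the counting of strand and of mates is not given in the sources used here. Of counts from 1 to 10, 70.6% to 78.5% were even. From these counts, 18374 of 49671 genes passed edgeR's filterByExpr. One edgeR quasi-likelihood fit (edgeR 4.0.16, TMM scaling, 1 mean per group, 9 libraries) gave each contrast, with Benjamini-Hochberg adjustment over all tested genes at 0.05. On counts simulated for the 18374 genes with a dispersion of 0.04, this comparison called 48 and 50 of 50 genes changed 4-fold down and up, and 36 and 34 of 50 changed 2-fold, all drawn from genes with a mean count above 20. Of 18174 genes not changed, 10 were called. Every gene had the same dispersion and no simulated library stood apart. These shares therefore do not describe genes whose libraries vary more. The SE is the log2 fold change divided by the square root of F, an approximation. CPM use TMM-scaled library sizes. Gene coordinates are from GENCODE M21 (GRCm38). Genes named include the largest changes among called genes, over all genes and within each list, and key genes of each list. Not every large change of a list is named. Others were chosen with their values known, and not all of these are marked as such. The comparison, lists and members were chosen with earlier results of these data known. Replicate numbers were not taken as pairs. Alternatives covered scaling, filters, DESeq2 1.42.0, limma voom 3.58.1 and leaving out each library. Some genes are not reported here.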

Additional observations from a re-analysis of the deposited data

How the results depend on the processing

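Between 2 and 14 of 314 genes, those of the naming rule and those in the text, changed side of the threshold under any one alternative, and no called gene was called the other way, while 11 genes that were not called changed sign under at least 1 alternative. Counts of genes higher and lower than in fresh cells were 4826 and 4800. They stayed within 1.5 times of these under every alternative except a filter of at least 10 CPM in 3 libraries, which tests 9569 genes and called 3168 and 3140. Upper-quartile scaling gave 4214 and 5202 and DESeq2 4623 and 5180. Leaving out 1 library at a time gave 4131 to 4785 higher and 4167 to 5032 lower. Against stimulated cells it gave 3210 to 4094 higher and 3450 to 4411 lower, from 3990 and 4192. With the replicate number as a block the counts were 4550 and 4575 against fresh cells and 3642 and 3940 against stimulated cells. Same-numbered fresh and treated libraries did not deviate together (r = −0.0826, −0.194 and −0.0388 across genes), so the numbers were not taken as pairs. Same-numbered stimulated and treated libraries gave r = 0.144, 0.107 and 0.0782, and each correlated best with its own number, a hint from the data and not the design. Under the block Cd69 was called lower (−0.33, adjusted p = 0.020), Il21 was called higher (0.79, adjusted p = 0.038) and Gbp3 was not called (adjusted p = 0.052). The median of all genes lay between −0.09 and 0.28. Without fresh library 2, most mitosis genes passed the threshold, as given above. Leaving out both fresh library 2 and treated library 1 (4895 and 4966) and leaving out the 2 most abundant genes (4656 and 4940) were alternatives chosen after seeing the data. Low counts limit genes near the floor of 3 counts over a group.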
